A study of Mus musculus with 6 samples.

Results

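The miR-19 family and the miR-25 family, which holds miR-25, miR-32, miR-92a and miR-363, were measured in prefrontal cortex of BTBR and C57BL/6J mice by 10 of the 750 microRNA (miRNA) assays of a TaqMan OpenArray rodent panel. The members were every assay whose miRNA name, without species prefix, strand mark and copy number, was miR-19a, miR-19b, miR-25, miR-32, miR-92, miR-92a, miR-92b or miR-363. They were hsa-miR-19a, hsa-miR-19b, hsa-miR-25, hsa-miR-32, hsa-miR-92, hsa-miR-363, hsa-miR-363#, rno-miR-25#, mmu-miR-92a# and mmu-miR-19a#, where the # stands for the strand of the hairpin that usually accumulates less. The name hsa-miR-92 is the older name of miR-92a, and no assay of the panel carried the name miR-92b. One group was 3 male mice of 5 months with the genotype label BTBR T+ Itpr3tf/J, an inbred strain studied for its low sociability and repetitive behaviour. The other group was 3 male wild type C57BL/6J mice of the same age. None of the mice received a drug, and each gave 1 sample of whole prefrontal cortex. A label field gave C57BL/6J as the strain background of the BTBR samples too, while their titles, source names and genotype field gave BTBR, so the samples were grouped by title.

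A miRNA guides the silencing complex to messenger RNAs that pair with its seed, bases 2 to 8 from its 5′ end, and miRNAs with the same seed are counted as a family. Most members come from a set of related gene clusters. The miR-17/miR-92 cluster encodes miR-17, miR-18a, miR-19a, miR-20a, miR-19b and miR-92a in 1 transcript and is best known as an oncogene that promotes proliferation. Its X-linked relative, the miR-106a-363 cluster, encodes miR-106a, miR-18b, miR-20b, second copies of miR-19b and miR-92a, and miR-363. The miR-106b-25 cluster lies in an intron of Mcm7, a subunit of the replicative helicase, and encodes miR-106b, miR-93 and miR-25. In the developing cortex the miR-17/miR-92 cluster is known for expanding neural progenitors. The miR-32 hairpin stands apart from these clusters, in an intron of the membrane protein gene Tmem245.

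The mature mouse sequences are shown 5′ to 3′, with the seed in capitals, because the seed divides the members into the families compared here.
mmu-miR-19a-3p: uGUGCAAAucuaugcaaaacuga
mmu-miR-19b-3p: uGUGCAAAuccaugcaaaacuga
mmu-miR-25-3p: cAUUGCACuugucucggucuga
mmu-miR-32-5p: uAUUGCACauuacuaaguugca
mmu-miR-92a-3p: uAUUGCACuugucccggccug
mmu-miR-363-3p: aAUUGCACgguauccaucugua
These are RefSeq sequences on GRCm38.p6. The sequence of miR-19a lies at chr14:115044048-115044070 on the plus strand, and that of miR-19b at chr14:115044358-115044380 (plus) and again at chrX:52741991-52742013 (minus). The sequence of miR-92a lies at chr14:115044476-115044496 (plus), inside the annotated host gene Mir17hg, and at chrX:52741854-52741874 (minus). That of miR-363 lies at chrX:52741697-52741718 (minus), that of miR-25 at chr5:138165332-138165353 (minus) inside Mcm7, and that of miR-32 at chr4:56895272-56895293 (minus) inside Tmem245. Since both copies of miR-19b and of miR-92a give the same mature sequence, an assay for either cannot tell the chromosome 14 copy from the X copy. Counted from the 5′ end, miR-19a and miR-19b shared 22 of 23 bases and differed by U11C, with miR-19a given first. In the other family, miR-25 and miR-92a shared 18 of 21 aligned bases, miR-25 and miR-32 13 of 22, and miR-25 and miR-363 9 of 22, the seed included in each count. The reverse complement of the miR-19 seed, UUUGCAC, shared the 6 bases UUGCAC with the seed of the other family.

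Each assay gave a cycle threshold, the point in the PCR where its signal passes a set level, so a higher threshold stands for less RNA. The value 40 was read as undetermined, and a raw threshold from 10 to under 40 as detected. Each member assay was listed once per mouse, and thresholds of different assays were not compared as levels, because assays differ in efficiency. Between 347 and 404 of the 750 assays were detected in BTBR samples, against 289 to 305 in C57BL/6J samples. Of 80 spots of endogenous small RNA controls, 78, 80 and 79 were detected in BTBR replicates 1, 2 and 3, against 63, 61 and 59 in C57BL/6J replicates 1, 2 and 3. Every C57BL/6J sample thus had fewer control spots read than any BTBR sample (79 ± 1 in BTBR and 61 ± 2 in C57BL/6J, SD, n = 3 each, two-sided exact permutation p = 0.1, the smallest that 3 against 3 samples allow). Of the neuron-enriched miRNAs, hsa-miR-128a read 14.7, 14.9 and 14.5 cycles in BTBR and 13.9, 14.0 and 13.8 cycles in C57BL/6J. The opposite order was seen for mmu-miR-124a, with 20.8, 19.8 and 23.3 cycles in BTBR and 31.4, 24.8 and 24.4 cycles in C57BL/6J, and hsa-miR-9 was read in 2 BTBR samples and 0 C57BL/6J samples. The heart-type hsa-miR-208 was undetermined in all 6 samples and muscle-type hsa-miR-1 was read in all 6.

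Of the 10 family assays, 5 were detected in at least 1 sample: miR-19a and miR-19b of the miR-19 family, and miR-25, miR-32 and miR-92 of the other. The assay of miR-363 and all 4 assays of less abundant strands were undetermined in all 6 samples. Over the whole panel 38.4% of the assays were detected in no sample, 28.6% among assays whose identifier ends in A, as for 6 of the family assays, 48.3% among those ending in B, as for the other 4, and 36.4% of the 121 assays marked #. BTBR replicates 1, 2 and 3 had 5, 5 and 3 family assays detected, against 1, 2 and 2 in C57BL/6J replicates 1, 2 and 3. That was 4.33 ± 1.15 in BTBR and 1.67 ± 0.577 in C57BL/6J (SD, n = 3 each, two-sided exact permutation p = 0.1, the smallest that 3 against 3 allow), without overlap between the strains. The whole panel moved the same way (370 ± 30.2 assays in BTBR and 298 ± 8.33 in C57BL/6J, exact permutation p = 0.1). In the authors' normalized table the family counts were 3, 3 and 2 in BTBR and 1, 2 and 2 in C57BL/6J, so the strains met at 2.

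**Figure D1:**
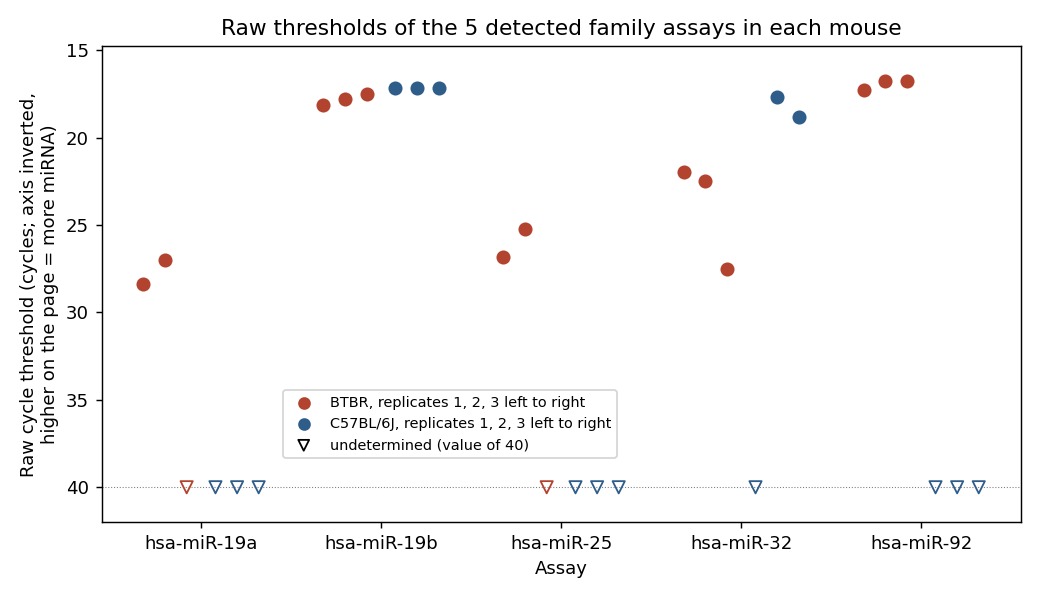
Raw cycle thresholds (cycles, axis inverted) of the 5 detected family assays, 1 point per mouse, BTBR in red left of C57BL/6J in blue, with undetermined readings as open triangles at 40. Only miR-19b was read in all 6 mice, and miR-92 was read at 16.8 to 17.3 cycles in BTBR and in no C57BL/6J mouse.

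The miR-19b assay was the only family assay read in every sample. Its raw threshold was 18.15, 17.81 and 17.53 cycles in BTBR replicates 1, 2 and 3, against 17.15, 17.14 and 17.14 cycles in C57BL/6J replicates 1, 2 and 3. Every BTBR value lay above every C57BL/6J value, that is less miR-19b, with means of 17.83 ± 0.312 cycles in BTBR and 17.14 ± 0.0085 cycles in C57BL/6J (SD, n = 3 each). Such a separation in this direction was seen in 18.1% of the 237 assays with 6 raw values. In the authors' quantile-normalized table the thresholds were 18.28, 18.64 and 17.99 cycles in BTBR and 17.32, 16.84 and 16.61 cycles in C57BL/6J, again without overlap, as for 57.7% of the 189 assays with 6 normalized values. On these values miR-19b fell by 1.38 on the log2 scale in BTBR (standard error 0.34, 2.61-fold less, limma adjusted p = 0.0301). Here 36.8% of the 231 tested assays passed an adjusted p of 0.05 and 35.5% passed as lower in BTBR and 1.3% as higher, so a passing assay was common. That split of 82 lower and 3 higher was 1 lower and 8 higher with scaling to U6 rRNA, 0 lower and 1 higher on the global mean scale described next, and 1 lower and 1 higher with sample medians. The split counts calls only. With U6 rRNA the median change of the 231 assays was -1.14 and 188 changes were negative, against -1.13 and 189 on the authors' values. It was -0.18 on the global mean scale (132 negative) and 0.048 with sample medians (112 negative). The bulk samples cannot tell fewer cells that hold a miRNA from less of it per cell.

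How large the miR-19b difference was depended on the scale. The median change of the 231 tested assays was -1.13 on the authors' values, and relative to it the change of miR-19b was -0.25. On the global mean scale, that is raw thresholds minus the sample's own average of the assays with 6 values in the normalized table, where 0.433% of assays passed and 0% as lower in BTBR, its change was -0.87 (standard error 0.30, limma adjusted p = 0.117). Its change was negative under all 15 alternatives, between -1.88 and -0.21, with adjusted p from 0.022 to 0.518, and it passed in 4 of them. Leaving out any 1 sample other than BTBR replicate 3 ended the call, with limma adjusted p between 0.0551 (without C57BL/6J replicate 1) and 0.111 (without C57BL/6J replicate 2), against 0.0332 without BTBR replicate 3. Without BTBR replicate 1 or 2 or C57BL/6J replicate 2 or 3, 0 assays of the whole panel passed. Without C57BL/6J replicate 1, 18 of 236 passed, and without BTBR replicate 3, 101 of 242. In the authors' deposited table miR-19b had a ratio of BTBR to C57BL/6J of 0.384 with an adjusted p of 0.0509, and it counts 40 as a value where a reading is missing.

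**Figure D2:**
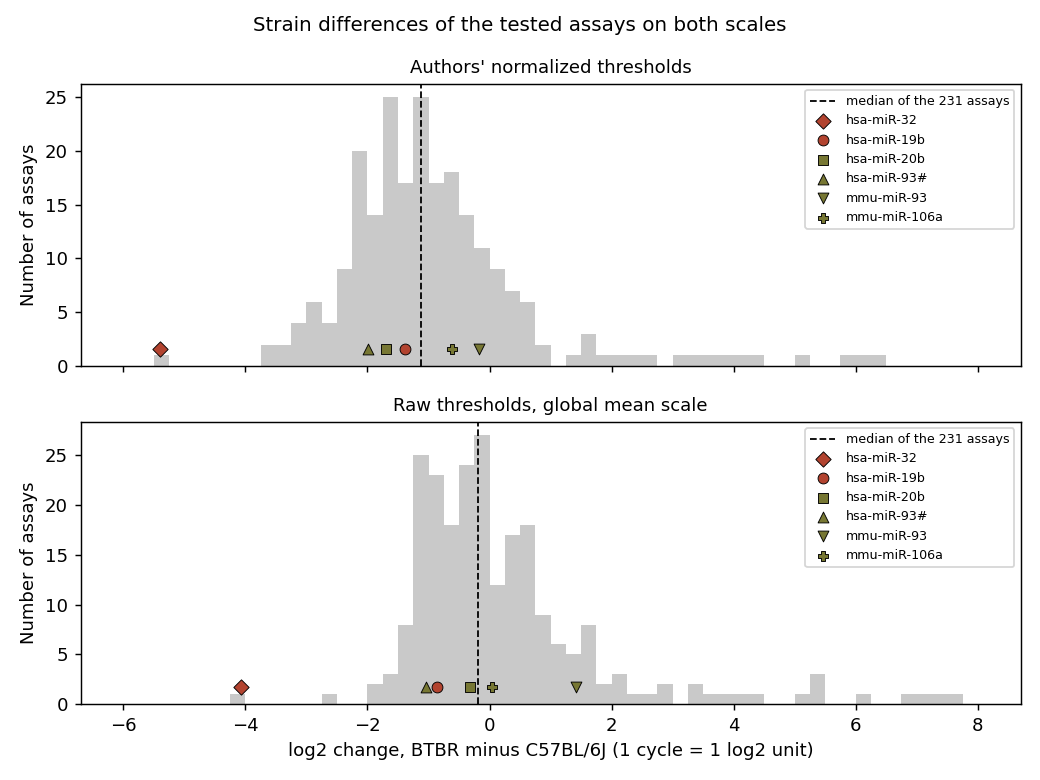
Number of assays by log2 change, BTBR minus C57BL/6J, for the 231 tested assays on the authors' normalized thresholds (top) and on the global mean scale (bottom), with the median dashed. The 2 tested family assays are in red and the 4 tested companions from the clusters in olive; miR-32 lay farthest left on both scales, at -5.39 and -4.07, and miR-19b at -1.38 and -0.87.

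The sequences that the assays were designed on were not used here, so how far the miR-19a assay tells miR-19a from miR-19b was not tested. The miR-19a assay was read at 28.36 and 27.00 cycles in BTBR replicates 1 and 2 and was undetermined in BTBR replicate 3 and in all 3 C57BL/6J samples. In C57BL/6J the miR-19b assay read near 17.1 cycles in the same samples, where the miR-19a assay gave no reading. Within BTBR replicates 1 and 2 the miR-19a threshold lay 10.21 and 9.19 cycles above that of miR-19b. The authors' normalized table does not list miR-19a, which entered no test.

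The miR-25 assay, for the miRNA of the miR-106b-25 cluster, had the same pattern of detection. It was read at 26.83 and 25.25 cycles in BTBR replicates 1 and 2 and was undetermined in BTBR replicate 3 and in all C57BL/6J samples. The miR-19a minus miR-25 difference was 1.54 cycles in BTBR replicate 1 and 1.76 in BTBR replicate 2. Detection in 2 BTBR samples and no C57BL/6J sample was seen in 7.20% of the 750 assays. Of 85 assays with a mean threshold from 25 to under 30 cycles in BTBR replicates 1 and 2, the range that holds both miR-19a and miR-25, 18 were undetermined in BTBR replicate 3 (21.2%) and 15 were detected in no C57BL/6J sample (17.6%).

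The miR-92 assay, for the product of both miR-92a copies, was read early in every BTBR mouse and in no C57BL/6J mouse. Its raw thresholds were 17.30, 16.79 and 16.75 cycles in BTBR replicates 1, 2 and 3 (16.95 ± 0.304, SD, n = 3), against undetermined in all 3 C57BL/6J samples. In the normalized table the BTBR values were 17.17, 17.29 and 17.24 cycles. It was 1 of 28 assays of the panel (3.73%) read in every BTBR mouse and in none of C57BL/6J, against 3 assays (0.4%) with the opposite pattern. Of those 28, 26 had identifiers ending in A, where they made up 6.9% of the assays, against 0.536% of those ending in B, 18 had a mean BTBR threshold under 20 cycles, and 6 were earlier than miR-92. The median BTBR threshold of the 28 was 18.66 cycles, against 21.89 cycles for all 298 assays detected in every BTBR sample.

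In the authors' deposited table miR-92 held the smallest adjusted p of the 306 listed assays, 0.000682608, with a ratio of BTBR to C57BL/6J of 7152971. That table, in which 15.7% of the assays had an adjusted p under 0.05, takes the C57BL/6J mean of miR-92 as 40, the value of an undetermined reaction, as it does for 26 assays. No fold change or test of miR-92 is therefore given here. In the same C57BL/6J samples 17, 19 and 21 of the 80 spots of endogenous controls were undetermined too, against 0 to 2 of the 80 in BTBR. Of snoRNA202, 15, 14 and 13 of 16 spots were read in C57BL/6J, and 10 to 13 of each other endogenous control. The snoRNA202 means over the spots read were 15.28, 15.48 and 15.51 cycles in C57BL/6J. In BTBR all 16 spots were read, with means of 13.99, 13.45 and 14.50 cycles. The means of snoRNA135 and Y1 were also earlier in every BTBR sample than in any C57BL/6J sample, while those of U87 and U6 rRNA overlapped. The part of failed reactions in the miR-92 result was not tested.

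**Figure D3:**
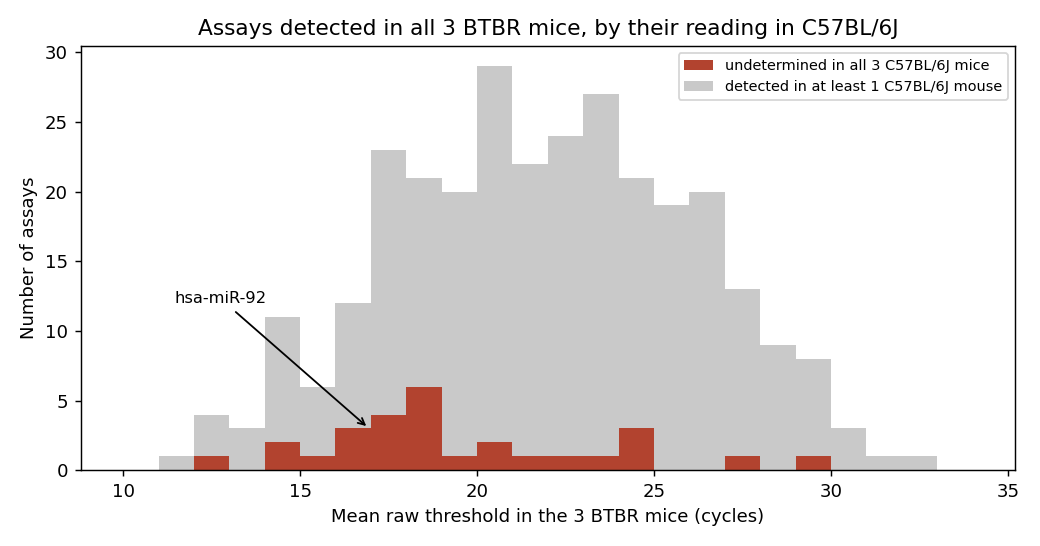
Number of assays detected in all 3 BTBR mice by their mean raw threshold in BTBR (cycles, bins of 1 cycle), with those detected in no C57BL/6J mouse in red below those detected in at least 1 in grey. The 28 assays in red, miR-92 at 16.95 cycles among them, lie mostly under 20 cycles.

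Within the BTBR samples the gap between miR-92 and miR-19b varied little. The miR-19b threshold lay 0.85, 1.02 and 0.77 cycles above that of miR-92 in BTBR replicates 1, 2 and 3, a range of 0.253 cycles. The miR-32 assay did not follow them: the miR-19b minus miR-32 difference ranged over 6.21 cycles in the same mice. The closeness was not particular to this pair: the miR-19b minus miR-20b difference varied less in the same mice, at -4.03, -4.16 and -3.99 cycles. The differences to miR-106a (-1.53, -1.44 and -1.74 cycles) and to miR-93 (-4.72, -5.14 and -7.61 cycles) varied more. How many other pairs of assays of the panel stay as close as miR-92 and miR-19b was not counted.

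The miR-32 assay gave the lowest change of the 231 tested assays but with missing samples on both sides. Its raw thresholds were 21.95, 22.48 and 27.54 cycles in BTBR replicates 1, 2 and 3, against undetermined, 17.69 and 18.80 cycles in C57BL/6J replicates 1, 2 and 3. All BTBR readings were later than both C57BL/6J readings, yet C57BL/6J replicate 1 had none. Among assays with a C57BL/6J reading under 20 cycles, 13.1% of 107 were undetermined in another C57BL/6J sample, and the same share in BTBR was 14.6% of 144. The authors' normalized table sets BTBR replicate 3 to 40, which leaves 22.68 and 23.84 cycles in BTBR, against 17.29 and 18.45 cycles in C57BL/6J. On these 4 values miR-32 fell by 5.39 on the log2 scale in BTBR (standard error 0.69, 42.0-fold less, limma adjusted p = 0.0298), the lowest change of the 231 assays and -4.27 relative to their median. The fit treats the missing sample of each strain as absent.

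On the global mean scale the change of miR-32 was -4.07 (standard error 0.70, limma adjusted p = 0.0737), again the lowest of the 231. With the late reading of BTBR replicate 3 kept, it was -7.79 (standard error 2.61, adjusted p = 0.0812). Its change was negative under all 13 alternatives, between -7.79 and -3.60, and it passed in 3, 1 of them the scaling to U6 rRNA (-5.70, limma adjusted p = 0.00495). The others left out BTBR replicate 3 or C57BL/6J replicate 1, which had no normalized value of miR-32 to begin with. They therefore kept the same 4 values and the same change of -5.39. Leaving out BTBR replicate 1 or 2 or C57BL/6J replicate 2 or 3 left 1 value of miR-32 in that strain and ended the call. The changes were then -5.97, -4.81, -4.815 and -5.97. In each of these fits 0 assays of the whole panel passed. BTBR replicate 3 read miR-32 5.06 cycles later than BTBR replicate 2 and 5.59 cycles later than BTBR replicate 1, while the median differences over all assays were 0.15 and -0.303 cycles. The authors' deposited table, which counts undetermined samples as 40, gives miR-32 a ratio of 0.0827 with an adjusted p of 0.772. Set against miR-19b in the same sample, which removes a shift of the whole sample, miR-32 lay 3.80, 4.67 and 10.02 cycles later in BTBR, against 0.55 and 1.66 cycles in C57BL/6J replicates 2 and 3. The means were 6.16 ± 3.36 in BTBR (SD, n = 3) and 1.10 ± 0.786 in C57BL/6J (SD, n = 2), a difference of 5.06 cycles (two-sided exact permutation p = 0.2, the smallest that 3 against 2 allow).

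The other miRNAs of the clusters also held both assays read in 1 strain only and assays read in both. Of 18 companion assays of miR-17, miR-18a, miR-18b, miR-20a, miR-20b, miR-93, miR-106a and miR-106b, 11 were detected in at least 1 sample and 4 were tested. On the authors' values 2 of the 4 fell, 0 rose and 2 did not pass, against 35.5% of all tested assays that fell. These were hsa-miR-20b, which shares its seed with miR-17 (log2 change -1.70, standard error 0.44, limma adjusted p = 0.0336), and hsa-miR-93#, the less abundant strand of miR-93 (-1.99, standard error 0.30, adjusted p = 0.0265). With global mean scaling 0 of the 4 companions passed in limma and 1 had an unadjusted p under 0.05, with miR-20b at -0.32 and miR-93# at -1.05. The changes of mmu-miR-106a were -0.62 on the authors' values and 0.041 on the global mean scale, and those of mmu-miR-93 were -0.17 and 1.42, neither past the threshold. The call of miR-20b was lost without any 1 sample other than BTBR replicate 3, and that of miR-93# without BTBR replicate 1 or 2 or C57BL/6J replicate 2 or 3. In the fits that ended the call of miR-93#, 0 assays of the whole panel passed.

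The pattern of miR-92 was shared by hsa-miR-18a, hsa-miR-20a and hsa-miR-106b, with mean raw thresholds of 24.67, 18.66 and 18.75 cycles in BTBR and no reading in C57BL/6J. The hsa-miR-17 assay was read at 16.32 and 14.54 cycles in BTBR replicates 1 and 2 only. By cluster, the 6 main strands of miR-17/miR-92 were all read in at least 1 BTBR sample, 4 of them in every BTBR sample, against 1 of 6 in any C57BL/6J sample. That 1 was miR-19b, which also has an X-linked copy. Of the 6 main strands of miR-106a-363, 4 were read in every BTBR sample, against 3 in every C57BL/6J sample, those of miR-19b, miR-20b and miR-106a. The strand read in BTBR alone was miR-92, already counted in the miR-17/miR-92 cluster, and its assay cannot tell the X copy apart. The miR-18b and miR-363 assays were read in no sample. Of the 3 main strands of miR-106b-25, 2 were read in every BTBR sample, against 1, miR-93, in every C57BL/6J sample. The whole panel leaned the same way, with 298 of the 750 assays read in every BTBR sample and 252 in every C57BL/6J sample. Among assays with identifiers ending in A, as for these main strands, 6.9% were read in every BTBR and no C57BL/6J sample. Whether the clusters differ from the panel was not tested.

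Raw differences between miR-19b and its companions within a sample do not depend on a shift of the whole sample. No pair of family assays was read in all 6 samples, so the comparison was made, after the values were seen, with the 3 companions with the same identifier ending that were. The hsa-miR-93# assay was also read in all 6 samples but ends in B and was not paired. On raw thresholds its log2 change was -0.87, against -0.69 for miR-19b, so less miR-19b relative to miR-93# was not read. How many panel assays differ from miR-19b without overlap between the strains was not counted. The miR-19b minus miR-20b difference was -4.03, -4.16 and -3.99 cycles in BTBR and -4.58, -4.62 and -4.60 cycles in C57BL/6J. The miR-19b minus miR-106a difference was -1.53, -1.44 and -1.74 cycles in BTBR and -2.57, -2.56 and -2.31 cycles in C57BL/6J. In both pairs every BTBR value was above every C57BL/6J value, so less miR-19b relative to miR-20b and miR-106a was read in BTBR, by 0.54 and 0.91 cycles. The miR-19b minus miR-93 difference was -4.72, -5.14 and -7.61 cycles in BTBR and -8.67, -7.96 and -7.69 cycles in C57BL/6J, a gap of 2.28 cycles that BTBR replicate 3 nearly closed. Without BTBR replicate 3 that gap was 3.18 cycles. All 3 pairs had a two-sided exact permutation p of 0.1, the smallest that 3 against 3 allow, and 0.1 after Benjamini-Hochberg adjustment over the 3. On the authors' normalized values the strains overlapped for miR-20b, with a difference of -0.32 cycles, and for miR-93, with 1.21 cycles, and did not overlap for miR-106a, with 0.77 cycles.

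**Figure D4:**
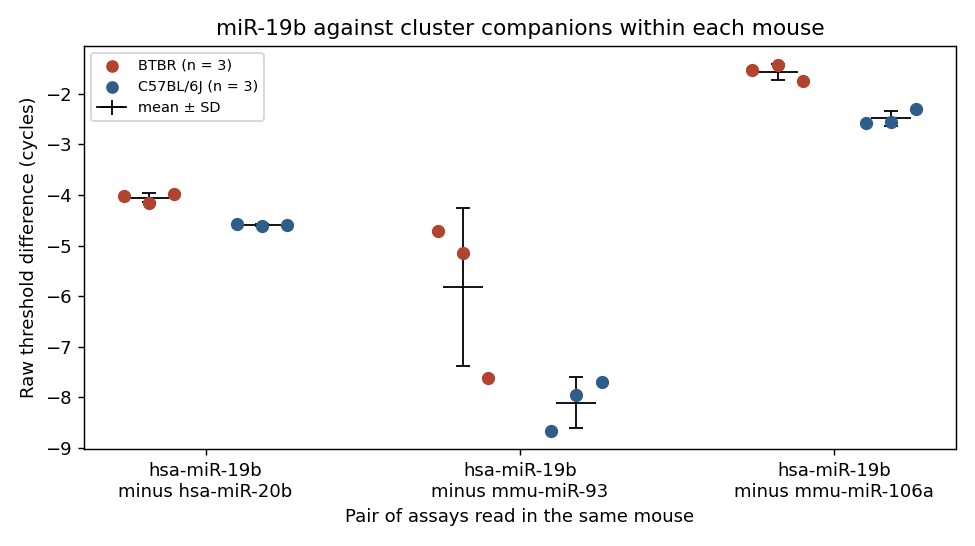
Raw threshold of miR-19b minus that of miR-20b, miR-93 or miR-106a in the same mouse (cycles), 1 point per mouse, BTBR in red left of C57BL/6J in blue, with mean and SD in black (n = 3 each). BTBR values lie above C57BL/6J values in each pair, by 0.54, 2.28 and 0.91 cycles between means, and in the miR-93 pair BTBR replicate 3, at -7.61 cycles, lies close to the nearest C57BL/6J value, -7.69 cycles.

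Among the 236 other assays read in all 6 samples, the profile most like that of miR-19b was that of hsa-miR-146a, a brake on innate immune signalling. Likeness was the root mean square distance between the profiles after centring each sample on its global mean and each assay on its own mean. The distance was 0.157 cycles for miR-146a, 0.159 for hsa-miR-543 of the Dlk1-Dio3 cluster and 0.162 for hsa-miR-26b, against a median of 0.671 over all assays. The companions ranked lower, miR-20b at place 28, miR-93# at 31, miR-106a at 78 and miR-93 at 199.

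Markers of red blood cells, which are rich in miR-92a and miR-25, also differed between the strains in their raw readings. The erythroid hsa-miR-486 was read at 16.66, 16.62 and 15.20 cycles in BTBR and in no C57BL/6J sample. It belonged to the 28 assays (3.73% of the panel) read in every BTBR and no C57BL/6J mouse. The mmu-miR-451 assay was read at 20.72, 19.98 and 19.74 cycles in BTBR against 21.10, 21.18 and 21.43 cycles in C57BL/6J. Such a separation, with BTBR earlier, was seen in 14.3% of the 237 assays with 6 raw values. The direction for miR-451 depended on the scale: global mean scaling gave a log2 change of 0.90, quantile normalization one of -0.21. The third marker, HSA-MIR-144, was undetermined throughout, so 2 of 3 markers were read in BTBR and 1 of 3 in C57BL/6J. Within BTBR, replicate 3 had the earliest miR-486 and miR-451, while miR-25 and miR-19a were undetermined in it. A sum over a list takes all its assays as equally efficient. Summed this way, the level corresponded to a threshold of 15.1 to 16.6 cycles in BTBR, where miR-486 made up most of it, and 21.1 to 21.4 cycles in C57BL/6J, where it was miR-451 alone, so this gap sets different assays against each other. The summed list of neurons stood at 10.6 to 11.4 cycles in BTBR and 10.5 to 13.8 cycles in C57BL/6J, and that of oligodendrocytes at 22.1 to 23.1 cycles in BTBR and 21.9 to 22.9 cycles in C57BL/6J. The value of 13.8 belongs to C57BL/6J replicate 3, where the reading of hsa-miR-138, the earliest neuron assay, was 9.60 cycles and so not counted as detected, and the other C57BL/6J samples stood at 10.5 and 10.6 cycles. The sums of endothelial and mural cells (15.1 to 16.5 cycles in BTBR and 12.6 to 13.9 cycles in C57BL/6J) and of microglia and other immune cells (13.0 to 14.0 cycles in BTBR and 12.6 to 12.9 cycles in C57BL/6J) did not overlap, and that of liver and muscle was 20.5 to 21.1 cycles in BTBR and 20.8 to 21.3 cycles in C57BL/6J. In the endothelial and mural list the sum followed mainly hsa-miR-145, undetermined, 16.5 and 15.3 cycles in BTBR and 14.0, 13.9 and 12.7 cycles in C57BL/6J, while 1 of the 2 hsa-miR-143 assays was read in 3 BTBR and 0 C57BL/6J samples and hsa-miR-126 read 16.6, 16.5 and 18.1 cycles in BTBR and 17.9, 19.1 and 17.8 cycles in C57BL/6J. In the list of microglia and other immune cells the sum followed mainly hsa-miR-150 and hsa-miR-146a, its earliest assays. Of these, hsa-miR-146a alone had every BTBR reading later than every C57BL/6J reading. The hsa-miR-223 assay that was read gave 20.21, 18.99 and 19.30 cycles in BTBR, against 19.63, 22.01 and undetermined in C57BL/6J. The hsa-miR-142-3p assay was read in 3 BTBR and 2 C57BL/6J samples. The part of blood in the readings of miR-92, miR-25 and miR-19a was not tested.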

How the data were processed

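Cycle thresholds were measured on RNA that was purified on columns, reverse transcribed and pre-amplified, per the labels' protocols. Standard kits of this kind can lose part of the small RNA. No source used here gives the layout of samples over arrays, so any array effect cannot be told apart from strain. Raw and normalized thresholds are log2 values with the sign turned, taking 1 cycle as a 2-fold difference, as deposited by the authors. The normalized table is quantile-normalized, per the file headers. Its values were rebuilt from the raw table with a largest difference of 3.33e-09 cycles by setting raw values under 10 to 40, keeping the 340 assays detected in at least 3 samples, taking common quantiles with 40 as a value and setting results above 29.19 to 40. The authors' deposited fold table holds a ratio, a log2 difference, a score (their test statistic) and p-values, raw and adjusted, by a method that no source used here gives.

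Normalized thresholds times -1, with 40 as missing, were tested with limma 3.58.1 (lmFit, eBayes, R 4.3.3) for assays with at least 2 detected values per strain (231), with Benjamini-Hochberg adjustment over all of them and calls at 0.05. Signed changes take BTBR over C57BL/6J. Single values were compared with exact permutation tests (scipy 1.17.1). Members, lists and tests were chosen with earlier results of these data known. Named assays were all members, all companions, the 3 nearest profiles, controls and cell type markers; the BTBR-only assays were named by their detection. On simulated data with the 231 assays, 15.6% of changes of 1 cycle and 74.4% of 3 cycles were recovered, and 4.18% of calls were false. That simulation drew independent noise for each assay, with changes in both directions and no shift of a whole sample. The real values had a median change of -1.13, so 4.18% is not an estimate of the false calls among them. A threshold has no counting depth: 1 PCR per assay and 3 mice per strain limit the precision. Alternatives were other scalings, late readings kept, 40 as a value, a stricter filter, a replicate block and leaving out each sample.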

Additional observations from a re-analysis of the deposited data

Results flagged for a closer look

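Family assays outside the test gave a signal in BTBR and none in C57BL/6J. The hsa-miR-92 assay was detected in 3 of 3 BTBR samples, hsa-miR-19a in 2 and hsa-miR-25 in 2, each against 0 of 3 C57BL/6J samples, in a panel where 15.2% of the 750 assays were detected in at least 1 BTBR and no C57BL/6J sample and 3.73% the other way round. These differences in detection were not tested assay by assay, and groups of 3 were too small for a test of single outlying samples.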

How the results depend on the processing

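All calls depended on the scaling and on single samples. The whole panel had 85 assays past the threshold in limma, against 1 on the global mean scale, 0 on raw thresholds (49 at an unadjusted p under 0.05), 9 with U6 rRNA (1 lower and 8 higher in BTBR), 2 with sample medians, 0 with all raw cells (71 unadjusted), 96 with 40 kept as a value (70 lower and 26 higher), 49 with the replicate block and 0 to 101 without 1 sample (90 to 135 unadjusted). Of the 2 family assays past it, 0 passed on the global mean scale, on raw thresholds, with all raw cells and with the replicate block, where miR-32 had no residual degrees of freedom and miR-19b an adjusted p of 0.0503, and 0 with sample medians. Their count was 1 with U6 rRNA, 1 with late readings kept, 1 with 3 values required per strain and 0 to 2 without 1 sample, with 1 or 2 of them at an unadjusted p under 0.05 in each of these. Of the 2 companions past it, 0 passed with the 5 other scalings (1 unadjusted), 1 with the replicate block and 0 to 2 without 1 sample (2 unadjusted). With 40 kept as a value 7 companions were tested and 5 passed, 2 lower and 3 higher in BTBR. The sign of mmu-miR-93 turned on the global mean scale (1.42), on raw thresholds (1.60), with U6 rRNA (0.40), sample medians (1.00), all raw cells (1.20) and without BTBR replicate 3 (0.50, with a lowest value of -0.77 without BTBR replicate 1). That of mmu-miR-106a turned on the global mean scale (0.041), on raw thresholds (0.22) and with sample medians (0.56), and the miR-19b minus miR-20b difference turned on normalized values (-0.32 cycles). The causes were not tested. The difference in detected family assays, 2.67 in the raw table, was 1 in the normalized table (exact permutation p = 0.3) and 2.33 to 3.33 without 1 sample. Same-numbered samples deviated together with correlations of 0.083, 0.421 and -0.00132 over 189 assays, so the replicate numbers were not taken as pairs. The planned differences between pairs of family assays gave no value, since no pair was read in all 6 samples.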

Other observations

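The spread of miR-19b between the 3 C57BL/6J mice, an SD of 0.0085 cycles on raw thresholds, was the smallest of the 237 assays read in all 6 samples, and miR-20b followed with 0.0148 cycles. In BTBR the SDs were 0.312 cycles for miR-19b and 0.338 for miR-20b, at places 64 and 73 of 237 from the smallest. The median SD of all assays was 0.524 cycles in BTBR and 0.516 cycles in C57BL/6J.

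Assays with like names differed in detection within the clusters, and the sequences they were designed on were not used here. The hsa-miR-20b assay was read in all 6 samples, while rno-miR-20b was read in BTBR replicate 2 alone, at 29.38 cycles. The less abundant strands mmu-miR-17# and mmu-miR-20a# were each read in 1 BTBR and 2 C57BL/6J samples, while the assays of the other strands, hsa-miR-17 and hsa-miR-20a, were undetermined in all 3 C57BL/6J samples.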
